A study of Mus musculus with 25 samples.

Results

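G9a (*Ehmt2*) and its partner GLP (*Ehmt1*) place mono- and dimethyl marks on lysine 9 of histone H3, and methylation of this residue is known as a barrier to the use of embryonic genes after somatic cell nuclear transfer (SCNT). UNC0638 and RK-701 are both small-molecule inhibitors of G9a (G9ai), and trichostatin A (TSA) inhibits histone deacetylases. The transcripts compared here are those of mouse two-cell SCNT embryos that received TSA with UNC0638 and of those that received TSA with RK-701, at the same doses and for the same times. The two-cell stage is when the mouse embryo starts its own transcription, in a burst that includes *Zscan4* genes, genes driven by the endogenous retrovirus MERVL, and the *Obox* homeobox genes.

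The comparison takes 4 of the 25 libraries of the study, namely the 2 labelled for TSA and UNC0638, CC_TG (UNC0638), and the 2 labelled for TSA and RK-701, CC_TG (RK-701). All 4 came from cumulus cell nuclei placed in enucleated BDF1 oocytes, and latrunculin A was present after activation in place of cytochalasin B, so both groups share the donor cell, TSA and latrunculin A and differ by the G9ai. TSA was used at 25 nM for 8 h and each G9ai at 1 µM for 24 h from activation. Each library was a pool of 5 to 10 embryos collected at 28 to 29 h. Embryos given TSA and A366, another G9ai at the same dose and time, CC_TG (A366), form the nearest other group, with 2 libraries. SCNT embryos with TSA alone (CC_T), untreated SCNT embryos (CC_cont), both also made with latrunculin A, and embryos from in vitro fertilisation (IVF) are given where they place a value. The called genes are also placed against SCNT embryos given RK-701 and latrunculin A without TSA. They are placed as well against SCNT embryos injected with *Kdm3a* or *Kdm4d* demethylase mRNA, made with cytochalasin B, with 2 libraries each. UNC0638 without TSA was not analysed here, so the values describe UNC0638 on a TSA background only. The labels do not say whether the pools of a group came from separate experiments. The p-values therefore measure a spread between pools, which need not be that between experiments. In the main fit this spread was estimated over the groups of all 25 libraries, not from these 4 alone.

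Read pairs counted on genes numbered 13992805 and 14161732 in the UNC0638 libraries and 13994840 and 15589564 in the RK-701 libraries, so depth was close to equal. Pairs on annotated repeats made up 10.4% and 11.4% of all counted pairs with UNC0638 and 9.22% and 9.83% with RK-701. Mitochondrial genes held 3.87% and 4.36% of gene counts with UNC0638 and 3.85% in both RK-701 libraries. Of 24 cumulus and granulosa cell genes tested, none was called between the groups in edgeR. Defining genes of those cells such as *Fshr*, *Cyp11a1*, *Inhba* and *Hsd3b1* were below 1 CPM (counts scaled to library size) in all 4 libraries, and *Amhr2* was the most abundant, at 23.9 and 34.4 CPM with UNC0638 and 38.6 and 30.9 with RK-701.

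Genes were tested with edgeR's quasi-likelihood test in a fit of all 25 libraries, and a gene was called where its adjusted p was under 0.05 and its fold over 2. UNC0638 and RK-701 differed in 244 of 25794 autosomal genes tested, or 0.946%. With UNC0638, 173 genes (0.671%) were higher and 71 (0.275%) were lower than with RK-701. Errors given as ± SE are standard errors of the log2 fold change from this fit. The smallest adjusted p was 7.12e-05, and 2970 genes had an unadjusted p under 0.05. The libraries of the groups did not overlap at 10631 genes, or 41.2% of those tested, so separation alone is common with 2 libraries against 2. In bulk RNA from whole embryos, a smaller number of embryos or cells that use a gene and less RNA per cell cannot be told apart.

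The number of calls rested on each library. Leaving out RK-701 replicate 2 left 28 called genes, leaving out UNC0638 replicate 2 left 60, leaving out RK-701 replicate 1 left 85, and leaving out UNC0638 replicate 1 left 125. None of the 244 genes changed direction in any of these fits. In all 4 of them 15 genes stayed called higher with UNC0638, among them *Usp17lc*, *Zfp352*, *Tcstv3*, *Gm20767*, *Gm21731*, *Gm21818*, *Gm9519*, *Gm5039*, *Gm16478*, *Ddit3*, *Ercc4*, *Echdc3*, *Tmem132c* and *Zfp217*. In all 4, *Arg1*, *Cers2* and *Smpd1* stayed called lower. In none of the 4 fits were 77 of the higher and 38 of the lower genes called.

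The 3 co-treatments give 3 pairs at matched dose and time. A366 and RK-701 differed in 0 genes by edgeR (0%), with 998 at an unadjusted p under 0.05, and DESeq2 also called 0. With only the 6 libraries of the co-treatments in the fit, edgeR called 6. UNC0638 and A366 differed in 219 genes (0.849%), of which 189 were higher and 30 lower with UNC0638. When p-values were adjusted over all 3 pairs together, UNC0638 and RK-701 differed in 201 genes, 147 higher and 54 lower with UNC0638. All 173 higher and all 71 lower genes had the same sign against A366. The 2 comparisons of UNC0638 share the libraries on which these genes were chosen, so agreement in sign is partly set by that choice. The share of genes with the same sign over all genes tested was not counted. Of the chosen genes, 118 higher and 20 lower were also called against A366, against 0.849% of all genes tested. A p that misses the threshold does not show that A366 and RK-701 act alike, and with 2 libraries each a moderate difference could go uncalled.

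**Figure D1:**
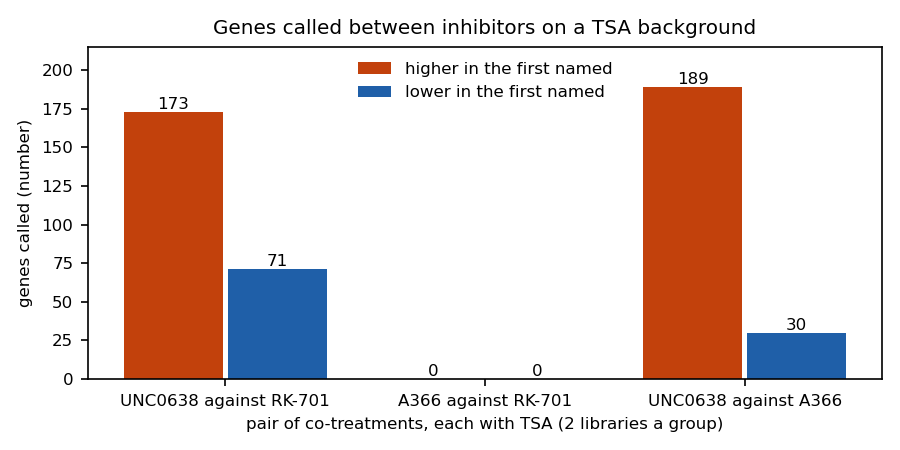
Number of genes called (adjusted p under 0.05 in edgeR and a fold over 2) (vertical axis) for each pair of co-treatments, with a bar for genes higher and a bar for genes lower in the first-named group. UNC0638 differed from RK-701 in 173 higher and 71 lower genes and from A366 in 189 and 30, and A366 and RK-701 differed in 0.

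The genes higher with UNC0638 included genes that mouse embryos switch on at the two-cell stage together with *Zscan4* and MERVL. Of 27 such genes tested, 9 rose (33.3%) and 0 fell with UNC0638, against 0.671% and 0.275% of all genes tested. Of the 27, 26 had a positive log2 fold change, as did 12742 of all 25794 genes tested. The median of the list was 1.63, against a median of 0 over all genes tested. The median of the same 27 genes between A366 and RK-701 was −0.10. The 9 genes were *Usp17lc*, *Usp17ld*, *Tcstv1*, *Tcstv3*, *Zfp352*, *Pramef25*, *Tdpoz3*, *Zscan4d* and *Zscan4f*. In the 4 fits without a library, 3 of these 9 were called every time and 1 not once. The summed level of the list was 5553 and 4824 CPM with UNC0638 and 2905 and 2864 CPM with RK-701. Many members have close copies in the genome, and since reads with a single best position were retained, values of single copies are uncertain.

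*Usp17lc*, at chr7:103415072-103419880 on the plus strand (mm10), encodes a ubiquitin-specific protease. Its level was 178 and 213 CPM with UNC0638 and 26.2 and 41.2 CPM with RK-701. With A366 it was 42.1 and 42.9 CPM, and the mean in CC_T was 60.03 CPM and in IVF embryos 73.0 CPM. Both UNC0638 libraries were thus above every library of these groups, and the difference from RK-701 was a log2 fold change of 2.54 ± 0.32 SE (adjusted p = 0.000174 in edgeR). The neighbouring copy *Usp17ld*, at chr7:103249737-103252505 on the minus strand, was at 32.2 and 33.9 CPM with UNC0638 and at 4.48 and 4.12 CPM with RK-701 (log2 fold change 2.94 ± 0.48 SE, adjusted p = 0.0016). *Usp17lb*, the most abundant of the copies tested, was at 2249 and 1638 CPM with UNC0638 and 1289 and 1256 CPM with RK-701, and was not called (adjusted p = 0.64).

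The windows around the start sites of *Usp17lc* and *Usp17ld* are shown because the 2 genes are neighbouring copies. Most of each window lies before the start, and how alike the transcripts are was not measured. Each runs from 250 bases before to 50 bases after the start in RefSeq on GRCm38.p6, chr7:103416446-103416745 on the plus strand for *Usp17lc* and chr7:103252456-103252755 on the minus strand for *Usp17ld*. Over 278 aligned positions, 269 were identical (96.8%), and capitals mark the bases that differ.
Usp17lc: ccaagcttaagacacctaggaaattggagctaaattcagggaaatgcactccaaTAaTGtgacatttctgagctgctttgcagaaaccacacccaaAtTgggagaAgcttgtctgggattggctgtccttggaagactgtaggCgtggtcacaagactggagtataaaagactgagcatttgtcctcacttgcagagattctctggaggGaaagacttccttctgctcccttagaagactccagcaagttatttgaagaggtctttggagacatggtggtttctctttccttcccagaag
Usp17ld: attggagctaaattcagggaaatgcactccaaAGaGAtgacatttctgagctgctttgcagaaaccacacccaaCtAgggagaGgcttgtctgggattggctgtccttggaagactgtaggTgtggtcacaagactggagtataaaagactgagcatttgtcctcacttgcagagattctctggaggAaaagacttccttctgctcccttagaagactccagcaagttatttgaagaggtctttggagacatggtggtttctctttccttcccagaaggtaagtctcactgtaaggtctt

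*Zfp352* encodes a zinc finger protein of the two-cell embryo, at chr4:90218820-90225702 on the plus strand. It was at 499 and 536 CPM with UNC0638 and at 164 and 161 CPM with RK-701, with a mean of 303 CPM in IVF embryos. The UNC0638 libraries were above all IVF libraries and the RK-701 libraries below them, and the log2 fold change between the inhibitors was 1.67 ± 0.26 SE (adjusted p = 0.000823 in edgeR). *Tcstv3*, a two-cell-specific gene of chromosome 13, was at 260 and 303 CPM with UNC0638 against 71.6 and 65.8 CPM with RK-701. Its log2 fold change was 2.03 ± 0.30 SE (adjusted p = 0.000702), and the related *Tcstv1* was at 55.7 and 94.3 CPM against 26.8 and 21.8 CPM (1.63 ± 0.32 SE, adjusted p = 0.00935).

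The *Zscan4* family encodes DNA-binding proteins known for a role in telomere lengthening. *Zscan4d*, at chr7:11161374-11166159 on the minus strand, was at 139 and 85.3 CPM with UNC0638 and at 22.8 and 47.9 CPM with RK-701. The libraries did not overlap, but both groups were spread, and the log2 fold change of 1.66 had a standard error of 0.42 (adjusted p = 0.0461 in edgeR). Without any 1 of the 4 libraries *Zscan4d* was no longer called, at an adjusted p of up to 0.411. Its mean was 178 CPM in IVF embryos, 10.4 CPM in CC_T and 8.02 CPM in CC_cont. *Zscan4f* was at 22.4 and 7.80 CPM with UNC0638 and at 2.09 and 2.72 CPM with RK-701 (log2 fold change 2.64 ± 0.56 SE, adjusted p = 0.0147), and was called in 1 of the 4 fits without a library. *Zscan4c*, at 60.2 and 24.3 CPM against 6.88 and 19.7 CPM, and *Zscan4a*, at 56.5 and 38.9 CPM against 24.6 and 26.6 CPM, did not pass the test (adjusted p = 0.255 and 0.213).

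*Tdpoz3* and *Pramef25* belong to families of many neighbouring copies used in the two-cell embryo. *Tdpoz3* was at 20.9 and 13.8 CPM with UNC0638 and at 4.10 and 1.74 CPM with RK-701 (log2 fold change 2.57 ± 0.52 SE, adjusted p = 0.0112 in edgeR). *Pramef25* was at 165 and 116 CPM against 27.2 and 19.18 CPM (2.60 ± 0.50 SE, adjusted p = 0.00722). *Tdpoz1* and *Tdpoz4*, which were more abundant, had log2 fold changes of 0.84 and 1.36 and did not pass the test (adjusted p = 0.0686 and 0.172).

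**Figure D2:**
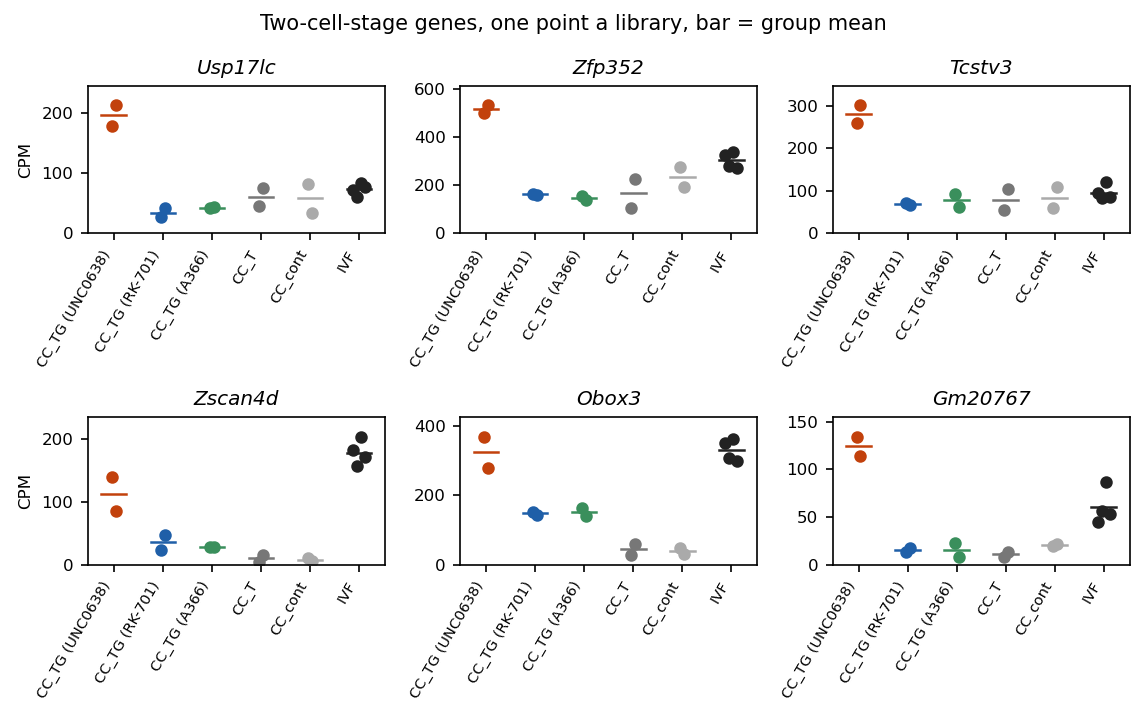
Level in CPM of 6 two-cell-stage genes, 1 point for each library and a bar at the group mean, with groups on the horizontal axis and a linear vertical axis from 0. The UNC0638 libraries of *Usp17lc* (178 and 213 CPM), *Zfp352* (499 and 536 CPM), *Tcstv3* (260 and 303 CPM) and *Gm20767* lie above all other libraries shown, whereas for *Zscan4d* the IVF libraries are highest.

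The *Obox* genes encode homeobox proteins needed for transcription in the early embryo. Among 7 tested, *Obox3* rose with UNC0638 (14.3%, against 0.671% of all genes tested) and none fell, and the median log2 fold change was 0.69. *Obox3*, at chr7:15479825-15639902 on the minus strand, was at 369 and 280 CPM with UNC0638 and at 151 and 144 CPM with RK-701, with a mean of 330 CPM in IVF embryos and 39.1 CPM in CC_cont. The log2 fold change between the inhibitors was 1.14 ± 0.27 SE (adjusted p = 0.0307 in edgeR), and the call was lost without any 1 of the 4 libraries. *Obox5* was at 227 and 292 CPM against 157 and 112 CPM and had an adjusted p of 0.022 but a fold under 2 (log2 fold change 0.95). *Obox6*, at 1440.1 and 1168 CPM with UNC0638 and 1356 and 1266 CPM with RK-701, overlapped between the groups (log2 fold change −0.01). *Obox8* overlapped as well, at 581 and 383 CPM against 499 and 598 CPM.

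The start-site windows of *Zscan4d*, *Zfp352* and *Obox3* are shown with the letters of known binding motifs. A motif known for DUX, the factor that switches on *Zscan4* and MERVL, reads TGATT, any 2 bases and ATCA, or on the other strand TGAT, any 2 bases and AATCA. A motif of the kind that OBOX homeobox proteins bind reads GGATTA, or TAATCC on the other strand. The E-box motif CACGTG reads alike on each strand. These motifs were searched on both strands. Of the 173 higher genes, 81 had a window in RefSeq, and of the 71 lower genes 51. GGATTA was found in 12 windows of the higher genes (14.8%), 5 of the lower genes (9.8%), 7.69% of windows of genes tested and 8.14% of all 27025 windows. The DUX motif was found in 2 windows of the higher genes, those of *Zscan4d* and *Zscan4f* (2.47%), in 0 windows of the lower genes and in 0.244% of all windows. CACGTG was found in 10 windows of the higher genes (12.3%), 6 of the lower genes (11.8%), 10.1% of windows of genes tested and 8.09% of all windows. The DUX and OBOX motifs share the letters GATT, a match is no evidence of binding, and some of the genes are copies of one another. In the sequences, capitals mark 1 match of the DUX motif in *Zscan4d* (chr7:11166099-11166398, minus strand), 9 of TAATCC in *Zfp352* (chr4:90218570-90218869, plus strand), where they lie in a short tandem repeat, and 1 of GGATTA in *Obox3* (chr7:15639728-15640027, minus strand).
Zscan4d: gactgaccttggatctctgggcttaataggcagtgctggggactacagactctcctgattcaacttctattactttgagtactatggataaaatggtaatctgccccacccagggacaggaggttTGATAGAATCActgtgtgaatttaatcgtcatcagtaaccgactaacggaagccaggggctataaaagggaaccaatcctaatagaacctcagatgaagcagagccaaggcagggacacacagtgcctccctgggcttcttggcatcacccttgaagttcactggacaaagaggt
Zfp352: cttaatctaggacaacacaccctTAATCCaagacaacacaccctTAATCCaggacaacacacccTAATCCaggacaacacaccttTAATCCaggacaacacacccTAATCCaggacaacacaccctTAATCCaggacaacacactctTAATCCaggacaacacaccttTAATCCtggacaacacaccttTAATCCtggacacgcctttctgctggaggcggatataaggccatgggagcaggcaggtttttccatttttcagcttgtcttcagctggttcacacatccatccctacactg
Obox3: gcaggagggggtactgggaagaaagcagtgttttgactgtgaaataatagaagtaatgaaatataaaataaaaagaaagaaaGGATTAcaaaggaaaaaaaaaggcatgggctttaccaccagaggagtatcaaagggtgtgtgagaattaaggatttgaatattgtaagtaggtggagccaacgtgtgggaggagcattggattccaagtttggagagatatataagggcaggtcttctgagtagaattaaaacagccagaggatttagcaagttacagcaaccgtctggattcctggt

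Some of the genes higher with UNC0638 lay near one another. Called genes no more than 500000 bases apart formed 14 runs that held 63 of the 173 higher genes, and 6 of the 71 lower genes lay in 3 runs. These counts were not compared by a test, and a longer list forms more runs by its number alone. The longest run, of 17 called genes among 57 tested, spanned chr12:87480108-88324026 and consisted of predicted genes such as *Gm5039* and *Gm6803*. On chromosome 13, 9 of 16 genes tested in chr13:119836006-120318178 were called, among them *Tcstv1*, *Tcstv3*, *Gm20767*, *Gm21731* and *Gm21818*. The *Tdpoz3* region, chr3:93826020-94199802, held 6 called genes of 15, and the *Pramef25* region, chr4:143394428-143951016, held 4 of 21. The region chr7:14837774-15639902 held 4 of 13, among them *Obox3* and 3 copies of *Gtpbp4-ps*. Some runs hold copies of one gene, such as *Gtpbp4-ps*, and others hold unlike genes, such as *Tmem256* and *Ybx2*. Where members are copies, reads could be split between them and the count of separate genes is uncertain.

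*Gm20767*, a gene of the chromosome 13 run, was at 134 and 115 CPM with UNC0638 and at 13.4 and 17.4 CPM with RK-701, with a mean of 60.3 CPM in IVF embryos. Its log2 fold change was 3.01 ± 0.44 SE (adjusted p = 0.000472 in edgeR). *Gm21818* was at 212 and 253 CPM against 49.6 and 41.4 CPM (2.35 ± 0.31 SE) and *Gm21731* at 259 and 247 CPM against 81.1 and 75.1 CPM (1.69 ± 0.22 SE). Both had an adjusted p of 0.000174, and for all 3 genes the UNC0638 libraries lay well apart from the RK-701 libraries.

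*Gm5039*, of the chromosome 12 run, was at 52.8 and 74.7 CPM with UNC0638 and at 7.03 and 12.8 CPM with RK-701 (log2 fold change 2.68 ± 0.39 SE, adjusted p = 0.000556 in edgeR). The unprocessed pseudogene *Gm9519* was at 31.1 and 28.4 CPM against 4.33 and 5.30 CPM (2.62 ± 0.34 SE, adjusted p = 0.000174). The processed pseudogene *Gm16478* was at 170 and 133 CPM against 47.6 and 48.8 CPM (1.65 ± 0.23 SE, adjusted p = 0.000285). The called processed and unprocessed pseudogenes were all higher with UNC0638, and 0 of either fell. Of 2678 processed pseudogenes tested 21 rose (0.784%), near the share of all genes tested that rose (0.671%). Of 344 unprocessed pseudogenes 11 rose (3.20%). Among 16234 protein-coding genes 115 rose and 65 fell.

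The study's reprogramming-resistant genes (RRGs) are genes that rise from the one-cell to the two-cell stage after fertilisation and were low in control SCNT embryos of this series. Of the 879 RRGs, 61 rose and 4 fell with UNC0638 relative to RK-701, with a median log2 fold change of 0.13. Calls covered 7.39% of RRGs and 0.946% of all genes tested. Over all genes tested 0.671% rose and 0.275% fell. The study divided them by their response to RK-701 and TSA in libraries that include the RK-701 libraries used here, so the split is not independent of this comparison. Among RRGs that it put in the class that responded to RK-701 alone and not to the co-treatment, 16 of 51 rose with UNC0638 and 0 fell (median 1.15). In the class that responded to RK-701 with and without TSA, 6 of 41 rose and 0 fell (0.66). In the class that responded only to TSA and RK-701 together, 1 of 161 rose and 3 fell (−0.19), and in the class without a response 38 of 621 rose and 1 fell (0.24).

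Genes that the study named for its RK-701 treatments differed among themselves. Of 9, *Zscan4d* and *Obox3* rose with UNC0638 (22.2%, against 0.671% of all genes tested), as given above. *Eif1a*, a translation initiation factor gene, was at 339 and 221 CPM with UNC0638 and 254 and 284 CPM with RK-701, and overlapped. *Terb2*, of the meiotic telomere complex, was at 130 and 145 CPM against 108 and 131 CPM. *Cstf2t*, a testis form of a polyadenylation factor, was at 626 and 630 CPM against 759 and 999 CPM (log2 fold change −0.49 ± 0.25 SE, adjusted p = 0.463 in edgeR). *Cox7b2* was low and uneven, at 0.784 and 0.81 CPM against 0.464 and 4.05 CPM.

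The targets of the inhibitors were measured at like levels in both groups. *Ehmt2* was at 23.5 and 26.4 CPM with UNC0638 and at 25.0 and 20.9 CPM with RK-701 (log2 fold change 0.12 ± 0.25 SE), and *Ehmt1* at 81.2 and 83.3 CPM against 75.0 and 81.9 CPM (0.07 ± 0.23 SE). Of 19 genes for H3K9 methyltransferases and their partners, 13 for H3K9 demethylases and 19 for histone deacetylases and corepressors, 0 passed the test in edgeR, with medians of 0.07, 0.06 and −0.04. *Kdm3a*, an H3K9 demethylase gene, was at 203 and 223 CPM with UNC0638 and at 168 and 127 CPM with RK-701 (0.53 ± 0.22 SE, adjusted p = 0.343). *Mecom*, of the methyltransferase list, was at 22.98 and 27.2 CPM against 12.4 and 10.1 CPM (adjusted p = 0.0676), and was called with DESeq2, without the filter on low counts and with only the 4 compared or the 6 co-treated libraries. *Hdac9* was called with the 6 co-treated libraries only.

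Outside the two-cell genes, *Ddit3* was among those that rose with UNC0638. *Ddit3*, at chr10:127290774-127296288 on the plus strand, encodes CHOP, a transcription factor of the integrated stress response. It was at 32.1 and 47.6 CPM with UNC0638, at 6.11 and 6.21 CPM with RK-701 and at 5.08 and 6.02 CPM with A366. The log2 fold change was 2.69 ± 0.37 SE (adjusted p = 0.000285 in edgeR), with means of 6.70 CPM in CC_T, 20.3 CPM in CC_cont and 12.7 CPM in IVF embryos. It was the only called gene of 24 tested for this response (4.17%, against 0.946% of all genes tested), whose median was 0.14. *Atf4*, its upstream factor, was at 182 and 225 CPM against 177 and 193 CPM (adjusted p = 0.811), and *Trib3* was at 38.2 and 45.8 CPM against 32.3 and 27.7 CPM (adjusted p = 0.435).

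Of 26 genes for lysosomes and autophagy, *Neu1*, the lysosomal sialidase gene, rose with UNC0638 and 0 fell, and the median was −0.08. The call was 3.85% of the list, against 0.946% of all genes tested. *Neu1*, at chr17:34931253-34935921 on the plus strand, was at 29.9 and 54.3 CPM with UNC0638 and at 13.7 and 13.3 CPM with RK-701 (log2 fold change 1.64 ± 0.30 SE, adjusted p = 0.00594 in edgeR). The UNC0638 libraries differed from each other by more than the RK-701 libraries did, and *Neu1* was called in 1 of the 4 fits without a library. In a wider list of 36 lysosomal hydrolase genes, written after the values were seen, *Neu1*, *Arsk* and *Aga* rose and *Smpd1* and *Asah1* fell, with a median of 0.02. These calls were 13.9% of the list, against 0.946% of all genes tested. Since the values were known when the list was written, the share is partly set by that choice. *Arsk*, a lysosomal sulfatase gene, was at 68.9 and 70.4 CPM with UNC0638 and at 23.4 and 22.0 CPM with RK-701 (1.62 ± 0.28 SE, adjusted p = 0.00331).

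The V-ATPase is the proton pump that acidifies lysosomes and endosomes. In a list of its 21 subunit genes tested, also written after the values were seen, *Atp6v1d* and *Atp6v1b2* rose with UNC0638 and 0 fell. Of the list, 15 had a positive log2 fold change and the median was 0.30. The calls were 9.52% of the list, against 0.946% of all genes tested, a share partly set by the late choice of the list. *Atp6v1d* was at 372 and 390 CPM with UNC0638 and at 142 and 143 CPM with RK-701 (log2 fold change 1.42 ± 0.27 SE, adjusted p = 0.00721 in edgeR), with means of 77.9 CPM in CC_T and 110 CPM in IVF embryos. Its call stood in 1 of the 4 fits without a library. *Atp6v1b2* was at 200 and 172 CPM against 87.2 and 74.0 CPM (1.205 ± 0.25 SE, adjusted p = 0.0139). *Atp6v1e1*, at 429 and 373 CPM against 186 and 171 CPM, did not pass the test (adjusted p = 0.0515).

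In a list of 37 genes of fatty acid oxidation and storage, written after the values were seen, *Acot13* and *Dgat1* rose, 0 fell and the median was −0.15. The calls were 5.41% of the list, against 0.946% of all genes tested, a share partly set by the late choice of the list. *Acot13*, an acyl-CoA thioesterase gene, was at 178 and 141 CPM with UNC0638 and at 57.0 and 79.2 CPM with RK-701 (log2 fold change 1.22 ± 0.25 SE, adjusted p = 0.011 in edgeR). *Dgat1*, whose enzyme makes triglycerides, was at 17.1 and 30.0 CPM against 7.19 and 9.28 CPM (1.52 ± 0.37 SE, adjusted p = 0.0327). Each was called in 1 of the 4 fits without a library.

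Of the other genes with the smallest adjusted p, *Ercc4*, which encodes a subunit of a DNA repair nuclease, was at 134 and 130 CPM with UNC0638 and at 47.7 and 36.3 CPM with RK-701. Its log2 fold change was 1.65 ± 0.23 SE (adjusted p = 0.000379 in edgeR). *Echdc3* was at 75.8 and 68.8 CPM against 25.0 and 25.4 CPM (1.52 ± 0.22 SE, adjusted p = 0.000441), and *Tmem132c* at 21.7 and 33.6 CPM against 5.02 and 5.72 CPM (2.36 ± 0.34 SE, adjusted p = 0.000441).

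Among the genes lower with UNC0638, *Arg1* had the smallest adjusted p of all genes. *Arg1*, at chr10:24915221-24927484 on the minus strand, encodes arginase, which cleaves arginine to ornithine and urea. It was at 9.41 and 13.6 CPM with UNC0638, at 64.8 and 58.5 CPM with RK-701 and at 38.4 and 36.2 CPM with A366. The log2 fold change between UNC0638 and RK-701 was −2.42 ± 0.28 SE (adjusted p = 7.12e-05 in edgeR), and A366 lay between the other two. Its mean was 63.5 CPM in IVF embryos, 26.3 CPM in CC_T and 27.8 CPM in CC_cont.

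Genes of enzymes that make or break down ceramide, the core lipid of sphingolipids, were among those that fell. *Cers2*, a ceramide synthase gene at chr3:95314791-95323599 on the plus strand, was at 23.7 and 22.2 CPM with UNC0638 and at 72.2 and 64.4 CPM with RK-701 (log2 fold change −1.57 ± 0.24 SE, adjusted p = 0.000823 in edgeR). *Smpd1*, at chr7:105554360-105558389 on the plus strand, encodes acid sphingomyelinase, which releases ceramide in lysosomes. It was at 8.08 and 8.98 CPM against 44.1 and 34.2 CPM (−2.20 ± 0.36 SE, adjusted p = 0.00177), and A366 libraries were at 30.5 and 32.3 CPM. *Asah1*, the acid ceramidase gene, was at 37.0 and 27.8 CPM against 64.2 and 66.0 CPM (−1.01 ± 0.22 SE, adjusted p = 0.02). In a list of 41 sphingolipid enzyme genes, written after the values were seen, these 3, *Plpp3* and *Acer1* fell, 0 rose and the median was −0.13. The calls were 12.2% of the list, against 0.946% of all genes tested, a share partly set by the late choice of the list.

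*Erap1*, at chr13:74639568-74693201 on the plus strand, encodes an aminopeptidase that trims peptides for presentation on MHC class I. It was at 6.82 and 3.61 CPM with UNC0638, at 22.2 and 26.9 CPM with RK-701 and at 26.2 and 14.7 CPM with A366 (log2 fold change from RK-701 −2.23 ± 0.34 SE, adjusted p = 0.000796 in edgeR). The neighbouring lincRNA *Gm46430*, at chr13:74579358-74617945 on the minus strand, was at 44.5 and 47.7 CPM against 118 and 141 CPM (−1.49 ± 0.27 SE, adjusted p = 0.00484). In a list of 21 immunoproteasome and antigen processing genes, written after the values were seen, *Erap1*, *Psmb9* and *Psme1* fell, 0 rose and the median was −0.27. The calls were 14.3% of the list, against 0.946% of all genes tested, a share partly set by the late choice of the list. *Psme1*, which encodes a proteasome activator subunit, was at 14.1 and 9.72 CPM with UNC0638 and at 25.0 and 31.0 CPM with RK-701 (−1.24 ± 0.29 SE, adjusted p = 0.0279). *Psmb9* had 2 and 3 reads with UNC0638 and 38 and 27 reads with RK-701. Of the 15 genes called in the lists written after the values were seen, *Cers2* and *Smpd1* were called in all 4 fits without a library and 6 (*Acer1*, *Aga*, *Atp6v1b2*, *Plpp3*, *Psmb9* and *Psme1*) in none.

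*Vdac2*, a channel gene of the outer mitochondrial membrane, was at 69.1 and 51.1 CPM with UNC0638 and at 138 and 160 CPM with RK-701 (log2 fold change −1.31 ± 0.20 SE, adjusted p = 0.000823 in edgeR). *Ankmy2* was at 99.2 and 93.6 CPM against 224 and 292 CPM (−1.42 ± 0.25 SE, adjusted p = 0.00427), and *Nhsl1* at 38.0 and 37.2 CPM against 74.3 and 88.8 CPM (−1.12 ± 0.21 SE, adjusted p = 0.00721). *Vdac2* was called in 3 of the 4 fits without a library, *Ankmy2* in 2 and *Nhsl1* in 1.

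In 4 further genes with a small adjusted p, RK-701 replicate 2 stood above RK-701 replicate 1. *Fam120a*, an RNA-binding protein gene, was at 143 and 133 CPM with UNC0638 and at 260 and 425 CPM with RK-701. *Znrf3*, which encodes a ubiquitin ligase for Wnt receptors, was at 24.9 and 23.04 CPM against 47.9 and 106 CPM, and *Mixl1*, a homeobox gene, at 15.5 and 12.7 CPM against 33.6 and 60.8 CPM. *Hmgn1*, a nucleosome-binding protein gene, was at 103 and 81.7 CPM against 158 and 234 CPM. Their log2 fold changes were −1.31, −1.68, −1.74 and −1.08 (adjusted p = 0.00322, 0.00558, 0.00721 and 0.00721 in edgeR). Each was called in 2 of the 4 fits without a library.

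**Figure D3:**
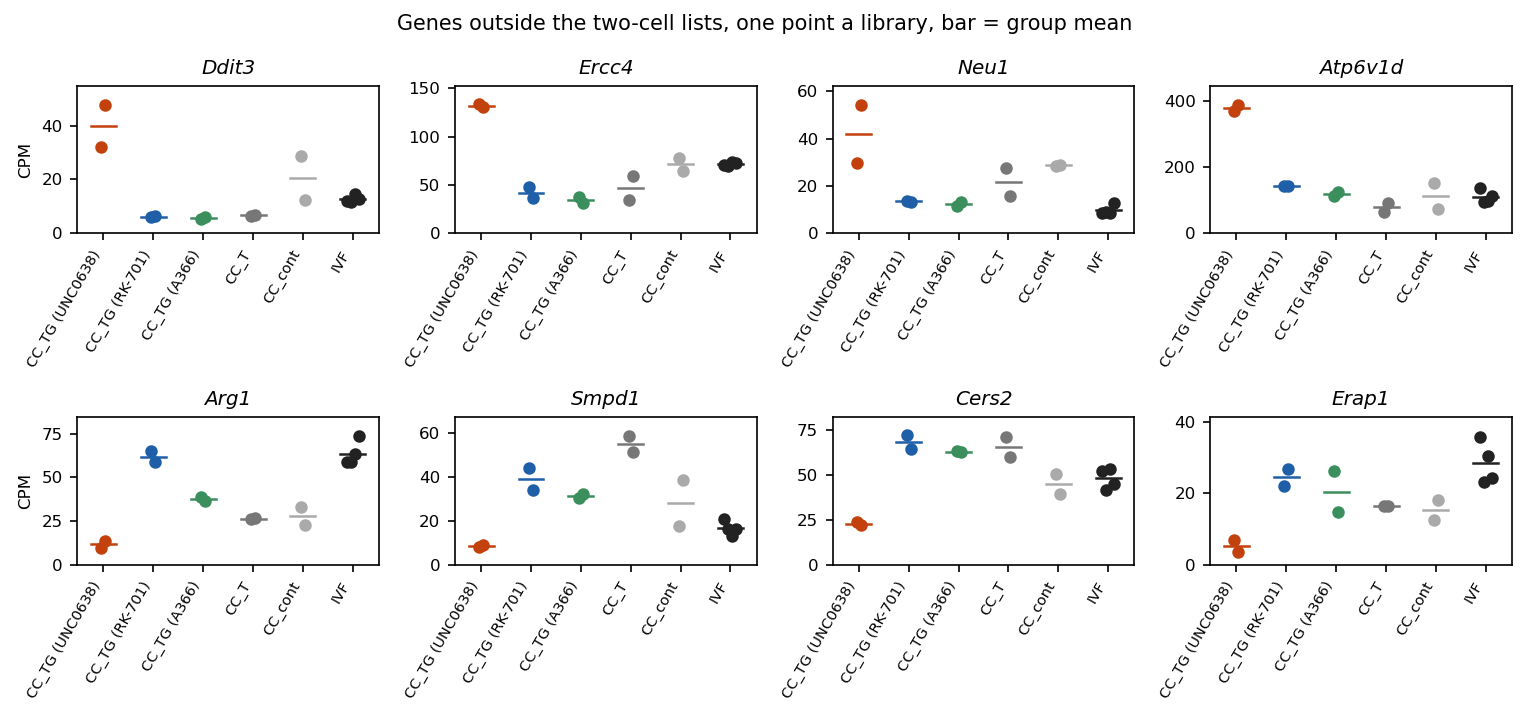
Level in CPM of 8 genes outside the two-cell lists, 1 point for each library and a bar at the group mean, with groups on the horizontal axis and a linear vertical axis from 0. *Ddit3*, *Ercc4*, *Neu1* and *Atp6v1d* are higher and *Arg1*, *Smpd1*, *Cers2* and *Erap1* lower in both UNC0638 libraries than in either RK-701 library.

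The largest fold changes came from genes with few reads. *Dbh* had 13 and 21 reads with UNC0638 and 0 in both RK-701 libraries, and was at least 5.82-fold higher when the RK-701 level was set at the floor of 3 reads a library. The 6 lower genes of largest fold had 0 reads in both UNC0638 libraries and against the same floor were at least 8.21-fold (*Krt28*), 6.59-fold (*Vamp2*), 5.70-fold (*Raet1e*), 4.68-fold (*Kbtbd13* and *4930403P22Rik*) and 3.68-fold (*Slc22a4*) lower. *Gm6803* had 78 and 232 reads against 3 and 10, *3110080E11Rik* 60 and 61 against 1 and 4, *Cfap206* 18 and 66 against 2 and 2, *Gm18983* 26 and 50 against 2 and 1, and *Gm43617* 10 and 28 against 1 and 0. All 12 genes were called in at most 1 of the 4 fits without a library.

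Other gene groups gave no call in edgeR with all 25 libraries. These were cholesterol synthesis (24 genes tested, median log2 fold change −0.02), endoplasmic reticulum stress (18, −0.10), p53 targets (24, −0.14), heat shock (17, −0.03), oxidative stress through NRF2 (19, −0.16) and the xenobiotic response (15, −0.39). The same held for genes of zygotic genome activation and the nucleolus (29, −0.06), germline genes (33, 0.14), H3K27me3-imprinted genes (8, −0.46), canonical imprinted genes (26, 0.01), oocyte transcripts (30, 0.11), lineage regulators (24, −0.04), DNA replication (34, 0.06) and actin and SRF targets (27, −0.02). *Hspa1b*, an Hsp70 gene, came closest in the heat shock list, at 25.4 and 22.8 CPM with UNC0638 and 9.58 and 8.44 CPM with RK-701 (adjusted p = 0.057). Of the members named by rule, *Hspa1b*, *Txnrd1* of the NRF2 list, *Actg1* of the actin list and *Tex19.2* of the germline list were each called under 4 alternatives, namely DESeq2, no filter on low counts, the 4 compared libraries alone and the 6 co-treated libraries alone, and *Actb* was called without RK-701 replicate 1. *Rfpl4*, an oocyte gene, was at 238 and 309 CPM against 166 and 130 CPM, with an adjusted p of 0.0484 and a fold under 2. Of 79 cytosolic ribosomal protein genes 0 were called, and 77 had a negative log2 fold change, with a median of −0.23.

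**Figure D4:**
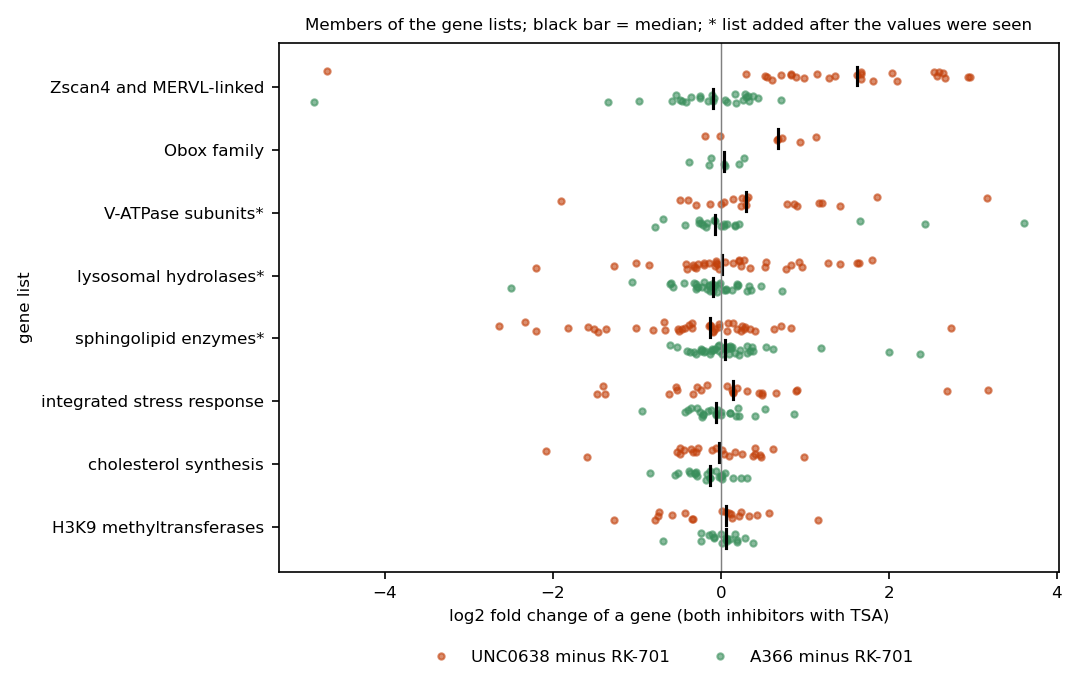
Log2 fold change of each member of 8 gene lists (horizontal axis) for UNC0638 minus RK-701 and for A366 minus RK-701, both with TSA, with a black bar at the median. The median of the *Zscan4* and MERVL-linked list was 1.63 for UNC0638 and −0.10 for A366, and lists marked with an asterisk were written after the values were seen.

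The called genes can be placed by their levels in other groups. Of the 173 higher genes, the A366 mean was nearer to UNC0638 than to RK-701 for 6 (3.47%), against 40.9% of all genes tested. CC_T was nearer to UNC0638 for 23 of the 173 (13.3%), against 46.5% of all genes, and IVF embryos for 85 (49.1%), against 52.0%. The embryos injected with demethylase mRNA, made with cytochalasin B, were placed in addition to the groups planned, and differed from each other. SCNT embryos given *Kdm3a* mRNA were nearer to UNC0638 for 136 of the 173 (78.6%, against 52.6% of all genes), and those given *Kdm4d* mRNA for 47 (27.2%, against 48.5%). Their cytochalasin B control, SCNT_cont, was nearer to UNC0638 for 64 (37.0%, against 51.5%). Of the 71 lower genes, A366 was nearer to UNC0638 for 9 (12.7%), CC_T for 21 (29.6%) and IVF embryos for 46 (64.8%). CC_cont was nearer to UNC0638 for 32 (45.1%, against 49.8% of all genes) and RK-701 without TSA for 45 (63.4%, against 53.4%). For *Kdm3a* the number was 51 (71.8%), for *Kdm4d* 30 (42.3%) and for SCNT_cont 40 (56.3%).

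The same genes were set against common reference groups. The genes were chosen for a difference between UNC0638 and RK-701, and the contrasts of each inhibitor share the reference libraries. Against CC_cont, 118 of the 173 genes were called higher and 0 lower with UNC0638 (background 3.68% and 2.54% of all genes), 11 higher and 19 lower with RK-701 (3.68% and 2.51%) and 16 higher and 18 lower with A366 (3.06% and 2.92%). Against CC_T, 127 were higher and 0 lower with UNC0638 (3.38% and 1.59%), 9 higher and 13 lower with RK-701 (2.28% and 0.806%) and 7 higher and 2 lower with A366 (1.43% and 0.485%). Against IVF embryos, 70 were higher and 1 lower with UNC0638 (5.54% and 4.3%), 3 higher and 72 lower with RK-701 (6.27% and 5.95%) and 6 higher and 62 lower with A366 (5.52% and 5.37%). Of the 71 lower genes, 5 were higher and 18 lower than IVF with UNC0638, and 37 were higher and 1 lower with RK-701.

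Families of repeats were tested in the same way, on counts summed over the copies of a family and scaled with the gene libraries. Of 686 families, 58 (8.45%) had an adjusted p under 0.05 in edgeR, of which 55 were higher and 3 lower with UNC0638, and 20 (2.92%) were also past a fold of 2. By class, 44 of 423 LTR families rose and 1 fell. Of these groups, 31 of 265 ERVK, 7 of 67 ERV1, 5 of 31 ERVL and 1 of 58 ERVL-MaLR families rose. Among LINE-1 families 9 of 111 rose, against 55 of all 686 families. Of 31 SINE families 0 were called. All 55 higher families had a lower mean with A366 than with UNC0638, and 34 of them were called against A366. These families were chosen on the same UNC0638 libraries, so this direction is partly set by that choice. Over all 686 families, the median log2 fold change of UNC0638 minus A366 was 0.30, and 67 (9.77%) were called in edgeR. A366 and RK-701 differed in 0 families by edgeR, with 30 at an unadjusted p under 0.05. For UNC0638 minus RK-701, the median over all 686 families was itself above 0, at 0.27. With library sizes and TMM factors taken from the repeats, the median was 0.02 and 33 families were called, 29 higher and 4 lower, of which 5 were past a fold of 2. The count fell to 0 without RK-701 replicate 1, 6 without UNC0638 replicate 2, 7 without RK-701 replicate 2 and 32 without UNC0638 replicate 1.

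MERVL is the retrovirus whose LTR, MT2_Mm, serves as promoter for many two-cell genes. MT2_Mm was at 4100 and 5092 CPM with UNC0638 and at 1831 and 2512 CPM with RK-701. The log2 fold change was 1.08 ± 0.25 SE (adjusted p = 0.0116 in edgeR), and 0.83 (adjusted p = 0.0219) with the repeats' own scaling. MERVL-int, its internal part, was at 6161 and 7189 CPM against 3741 and 4130 CPM (0.76 ± 0.19 SE, adjusted p = 0.0184), and 0.51 (adjusted p = 0.0415) with the repeats' own scaling. The libraries of both families did not overlap between the inhibitors. That was so for 41.2% of genes tested, and the share was not counted for families. With 1 library left out, the log2 fold change of MT2_Mm lay between 0.87 and 1.33 and that of MERVL-int between 0.65 and 0.87. The direction held in these fits, but neither family kept its call in all of them.

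Retroviruses of the IAP and related ERVK groups, which are known targets of H3K9 methylation, gave the smallest p-values. The family IAPEY2_LTR was at 92.7 and 71.5 CPM with UNC0638 and at 33.2 and 34.3 CPM with RK-701 (log2 fold change 1.28 ± 0.23 SE, adjusted p = 0.00502 in edgeR). IAPEY3_LTR was at 22.1 and 21.9 CPM against 9.89 and 8.09 CPM (1.29 ± 0.23 SE, adjusted p = 0.00502). With the repeats' own scaling they were at 1.04 and 1.05. IAPEz-int was at 388 and 399 CPM against 220 and 246 CPM (0.76 ± 0.19 SE, adjusted p = 0.02), and was not called with the repeats' own scaling (0.51, adjusted p = 0.0829).

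RLTR6-int, at 135 and 156 CPM with UNC0638 and 65.9 and 73.7 CPM with RK-701, had a log2 fold change of 1.06 ± 0.20 SE (adjusted p = 0.00661 in edgeR). ETnERV-int was at 61.5 and 92.1 CPM against 34.5 and 40.8 CPM, MMERVK10C-int at 425 and 500 CPM against 272 and 253 CPM, and RLTR9D at 63.8 and 50.4 CPM against 24.7 and 33.3 CPM. Their log2 fold changes were 1.03, 0.82 and 0.98, each with an adjusted p of 0.00694. The 3 lower families were RLTR13B2, at 37.0 and 40.1 CPM with UNC0638 and 60.9 and 59.3 CPM with RK-701 (−0.64, adjusted p = 0.0311), Charlie29b (−1.48) and Tigger6b (−1.21).

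**Figure D5:**
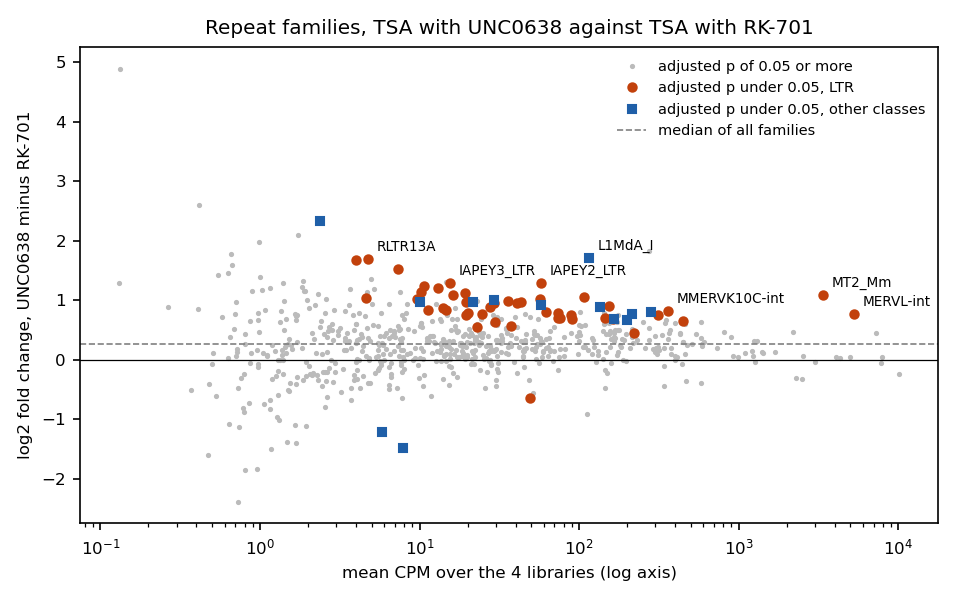
Log2 fold change of each of 686 repeat families for UNC0638 minus RK-701 with TSA against its mean level in CPM on a log axis, scaled with the gene libraries. Coloured circles are called LTR families and coloured squares called families of other classes (55 higher and 3 lower in all), and the dashed line marks the median of all families, 0.27.

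The libraries as a whole were compared by Euclidean distance on log2(TPM + 1) over 17116 genes. Distances within a group were 82.8 for UNC0638, 77.3 for RK-701 and 74.9 for A366. The mean distance between UNC0638 and RK-701 libraries was 96.3, with a range of 90.4 to 102, against 95.0 between UNC0638 and A366 and 77.7 between A366 and RK-701. All 4 distances between UNC0638 and RK-701 libraries were larger than both distances within these groups, but an exact permutation test of 2 against 2 libraries cannot go below p = 0.333, the value it gave (two-sided). From the IVF mean profile the distance was 116 and 111 for UNC0638, 118 and 122 for RK-701, 114 and 118 for A366, and 135 and 157 for CC_cont. The A366 libraries overlapped the UNC0638 libraries in this distance, and UNC0638 against RK-701 had the same p of 0.333 by a two-sided exact permutation test. With a pseudocount of 0.1 the UNC0638 and RK-701 libraries overlapped as well (exact permutation p = 0.667).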

How the data were processed

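Polyadenylated RNA was amplified with SMART-Seq HT and sequenced in pairs. Trimmomatic, STAR (mm10, reads with a single position) and featureCounts were the authors' tools for trimming, alignment and counting. The deposited values are whole read counts without normalization, for 55375 genes and 1755056 repeat copies. Counting without strand means that antisense partners cannot be told apart, and pairs over several features were dropped. Sex chromosomes and genes under a mean of 1 read were left out. Counts were scaled by TMM and fitted with edgeR 4.0.16 over all 25 libraries, without covariates, and p-values were adjusted by Benjamini-Hochberg. Repeat families needed a mean of 10 reads. CPM, TPM and distances were computed from these counts. DESeq2 1.42.0 was an alternative. Scripts were tested on simulated counts, where changes of moderate size were often not called, and the changes put in were enlarged after a first run recovered few. Precision is limited by 2 libraries a group.

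Genes named were the 12 per direction of smallest adjusted p and 6 of largest fold, both with at least 10 reads in each higher library, called list members, genes the study named, *Ehmt1* and *Ehmt2*, and the 2 of smallest p in lists without calls, of which the most informative are printed. A gene that met the rule is not reported here and is not counted in its list. Repeat families named were the 6 per direction of smallest p. Other genes and families named (among them *Zscan4c*, *Usp17lb*, *Obox5*, *Tdpoz1*, *Tdpoz4*, *Atf4*, *Trib3*, *Zfp217*, *Arsk*, *Aga*, *Asah1*, *Plpp3*, *Acer1*, *Psmb9*, *Psme1*, *Acot13*, *Dgat1*, the V-ATPase genes, MT2_Mm, MERVL-int, IAPEz-int and L1MdA_I) were chosen after their values were seen. The groups and lists were chosen with earlier results of these data known, and 5 lists were written after the values of this comparison were seen.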

Additional observations from a re-analysis of the deposited data

Results flagged for a closer look

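Among 14 genes plotted, 1 had an IVF library that stood apart from the other 3. For *Neu1* the highest of the 4 IVF libraries was at 12.55 CPM, past Dixon's limit for 4 samples. Chance alone flags about 1 in 20 such groups. This library lay below both UNC0638 libraries.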

How the results depend on the processing

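Depth was nearly equal, so the number of libraries sets the limits: 2 against 2 leaves many moderate differences uncalled, and calls move with each library. Where 1 library was left out, the lone library of its group was assumed to vary like the other groups. In no alternative did a called gene change sign.

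For UNC0638 against RK-701, the 244 genes became 470 with DESeq2, 455 without the filter on low counts, 533 with only the 4 compared libraries and 628 with only the 6 co-treated libraries. They became 244 with RLE size factors (240 shared), 266 with a filter of 10 reads in 2 libraries and 258 with sex chromosomes included. Leaving out 1 library gave 28 to 125 genes, 0 to 32 repeat families, and 0 to 18 families also past a fold of 2. The share of called genes that were higher was 70.9%, and lay between 54.1% and 88.3% without 1 library.

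The RRGs called were 65, or 101 with DESeq2. A366 against RK-701 gave 6 genes with the 6 co-treated libraries, and UNC0638 against A366 gave 420 with DESeq2 and 565 with those 6 libraries. The 58 repeat families became 33 with their own scaling (5 past a fold of 2) and 153 with the 4 compared libraries. The ratio of distances between to within groups was 1.2, and 1.64 over RRGs alone. The UNC0638 libraries were nearer the IVF mean by a difference of −6.23, and of −3.73 over RRGs alone. With a pseudocount of 0.1 the difference was −6.01, but the groups overlapped (exact permutation p = 0.667). The cause of these shifts was not tested.

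With the replicate number as a block, 174 genes were called (128 higher and 46 lower, 172 of them among the 244), 36 repeat families, and 14 families also past a fold of 2. The numbers are a name only: deviations of same-numbered libraries had a correlation of −0.0109 over 25794 genes and −0.0752 over genes of at least 100 reads.

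Without 1 library the log2 fold change of *Eif1a* ranged from −0.29 to 0.33, *Obox6* from −0.17 to 0.14, *Cox7b2* from −2.33 to 0.77, *Ehmt2* from −0.0035 to 0.25 and *Obox8* from −0.52 to 0.084, and none of these was called. Of the values of 91 named genes under 13 settings, 1044 kept their side of the threshold, 110 lost the call, 22 gained it and 7 changed sign.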

Other observations

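Called genes were most frequent on chromosomes 12 and 13. On chromosome 12, 21 genes were higher and 6 lower with UNC0638 (2.52% of 1071 tested), and on chromosome 13, 15 were higher and 7 lower (1.8% of 1221), against 0.946% over all autosomes.

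The LINE-1 family L1MdA_I was at 200 and 154 CPM with UNC0638 and at 63.5 and 44.6 CPM with RK-701 (log2 fold change 1.71 ± 0.52 SE, adjusted p = 0.0471 in edgeR). The A366 libraries were at 65.9 and 240 CPM, so that 1 lay with the RK-701 libraries and the other above the UNC0638 libraries.

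*Zfp560* and *Zfp217*, zinc finger genes that were no members of the lists, were both higher with UNC0638. *Zfp560* was at 139 and 149 CPM with UNC0638 and at 55.3 and 56.2 CPM with RK-701 (log2 fold change 1.37 ± 0.22 SE, adjusted p = 0.0016 in edgeR), and *Zfp217* was at 129 and 132 CPM against 59.2 and 61.5 CPM (1.11 ± 0.18 SE, adjusted p = 0.00131). A366 lay near RK-701 for both, at 62.0 and 52.8 CPM and at 71.1 and 75.0 CPM.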
